A study of Sus scrofa with 12 samples.

Results

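Primary porcine arterial endothelial cells (ECs) were exposed for 48 h to laminar flow, and RNA-seq was performed on 12 cultures, 3 each at 2 and 80 dyne/cm2 and 6 at the physiological wall shear stress (WSS) of 30 dyne/cm2. The 6 cultures at 30 dyne/cm2 form 2 control sets of 3, named 30.1 and 30.2, and the comparison described here is 30.2 vs. 30.1, that is, 6 of 12 libraries at equal WSS. Both sets came from the same 3 donor pigs and were primary cells grown in the same medium with serum and heparin, with no genetic change or added agent named. Each donor gave 1 culture per set. The p-values of the main test, paired by donor, set the difference between sets against its variation among 3 donors. For each gene, that variation was estimated partly from the other genes tested. By the labels, each of the other WSS levels was meant to have a 30 dyne/cm2 control in its own type of flow chamber.

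The sources do not agree on how the sets differed. The labels place 2 dyne/cm2 and its controls in the Ibidi μ-Slide VI 0.4 at 30000 cells per channel, and 80 dyne/cm2 and its controls in the μ-Slide I 0.2 Luer at 100000 cells per channel. The published methods name a single slide type and density for all cultures. No label used here says which slide belongs to the name 30.1 and which to 30.2. The labels call the cells aortic and the methods coronary. Slide type, cell number and anything else that differed between the sets therefore cannot be told apart, and differences are given only by set name.

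Laminar shear is sensed at the EC surface and by cell junctions and integrins. Sustained physiological flow is known to induce the transcription factors KLF2 and KLF4 and endothelial nitric oxide synthase, and to keep inflammatory genes low. The ERK branch of the MAP kinase pathway, which responds to growth factors, adhesion and acute flow, induces immediate early transcription factors and then its own inhibitors, the dual specificity phosphatases (DUSP) and the Sprouty (SPRY) proteins. The levels of these feedback genes follow ERK activity in many cell types.

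Library totals were 33000798 to 41058902 reads in the 30.1 set and 32020939 to 38336834 in the 30.2 set. Of 21153 genes in the table, 11163 reached a CPM (a read count scaled to library size) of 1 in at least 3 of the 6 libraries and were tested. The EC markers PECAM1 (2960 to 3430 CPM in 30.1, 2770 to 3200 CPM in 30.2), CDH5 and TIE1 were abundant in both sets. The summed level of the EC marker list was 9059 to 10240 CPM in 30.1 and 8560 to 9197 CPM in 30.2, lower in each donor. Of its 13 tested members 10 had a lower and 3 a higher estimate in 30.2 (median log2 fold change −0.14). The smooth muscle gene DES and the leukocyte genes PTPRC and CD3E had 0 counts in all 6 libraries, and CNN1 had at most 5. Of the smooth muscle and pericyte list 5 members were tested, and at an unadjusted p under 0.05 by edgeR SYNPO2, PDGFRB and LMOD1 were higher in 30.2 (log2 fold changes 0.57, 0.69 and 0.57) and CSPG4, a pericyte proteoglycan, was lower (−1.67). The median of the list was 0.57 over 3 donors, 0.056 without donor 1, where 0 of 4 tested members were higher, and −0.25 with no filter on level. Its summed level was 71.0 to 94.6 CPM in 30.1 and 69.6 to 90.2 CPM in 30.2. Unlike the median over 3 donors, the sum was lower in 30.2 in each donor. The part of such cells in the results below was not tested. The summed level of the fibroblast marker list was 231 to 924 CPM in 30.1 and 213 to 1460 CPM in 30.2. FN1, encoding fibronectin, took 2.47 to 3.71% of reads in 30.1 and 3.70 to 5.98% in 30.2, and the 10 most counted genes took 9.31 to 9.73% and 9.87 to 12.03%.

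Cultures of the same donor at the same WSS differed little for most genes. The median absolute log2 fold change between sets was 0.12, and 103 genes (46 higher and 57 lower in 30.2) differed by 2-fold or more. All 3 donors were higher in 30.2 for 22.6% of genes and lower for 21.5%. With the donor as a block, 2 genes passed a Benjamini-Hochberg adjusted p of 0.05 in edgeR's quasi-likelihood test, which is 0.0179% of the genes tested, and both fell: IL1A and WNT9B. IL1A alone (0.00896%) also differed by 2-fold or more. At an adjusted p under 0.1 there were 109 genes, 51 higher and 58 lower. At an unadjusted p under 0.05, 10.3% of genes were higher and 8.94% lower in 30.2, against which counts of list members over 3 donors are read. The shares were 4.9% and 4.2% without donor 1, 12.2% and 10.9% without donor 2 and 6.25% and 5.81% without donor 3, against which counts without that donor are read. Across genes, the set difference of donor 1 correlated with that of donor 3 at Pearson's r = 0.511, with that of donor 2 at 0.314, and donors 2 and 3 at 0.246. Genes are not independent replicates, and these values describe agreement only. Donor 2 had the smallest median absolute difference, 0.121 on the log2 scale, beside 0.165 and 0.179 in donors 1 and 3.

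**Figure D1:**
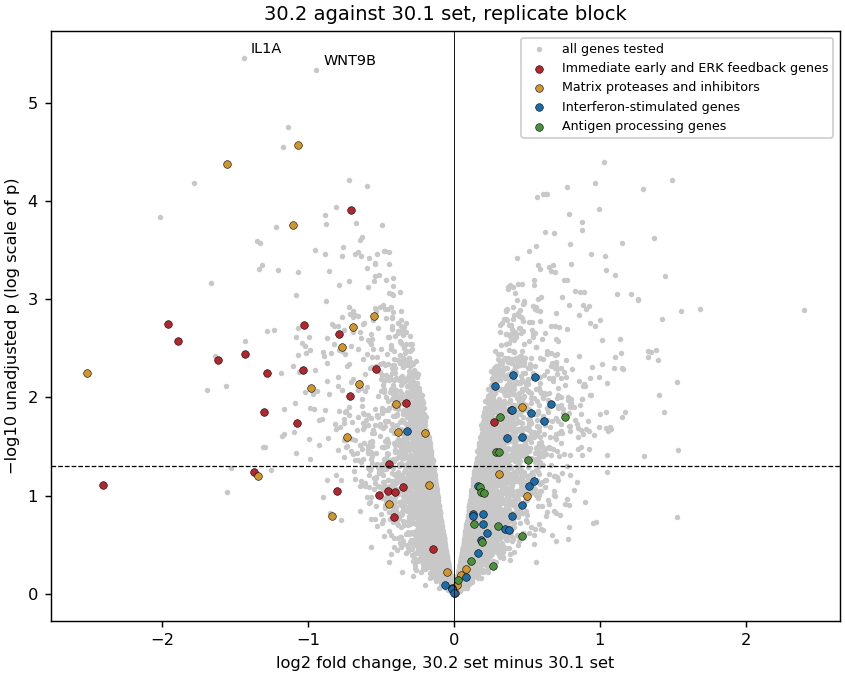
Log2 fold change of 30.2 vs. 30.1 (x axis) and its test on the −log10 scale (y axis) for the genes tested, with 4 gene lists coloured and the dashed line at the unadjusted threshold. IL1A and WNT9B stand highest, the immediate early and ERK feedback genes lie mostly left of 0, and the interferon and antigen processing genes lie mostly right of it.

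IL1A (ENSSSCG00000008090, Sscrofa11.1 chromosome 3, 43718320 to 43731668) encodes interleukin 1 alpha, a proinflammatory cytokine that ECs store and release. Its level in 30.1 was 6.48, 244 and 0.814 CPM in donors 1, 2 and 3, and 2.22, 92.1 and 0.335 CPM in 30.2. Donors differed far more than sets, so the ranges overlapped, yet each donor was lower in 30.2. IL1A fell by 1.44 on the log2 scale (SE 0.09, 95% interval −1.65 to −1.23, adjusted p = 0.0261 by edgeR). By edgeR the call was lost without the block (adjusted p = 0.998) and with all 12 libraries in the fit (0.465), and without donor 1 or donor 2 the gene was under the level filter and not tested.

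WNT9B (ENSSSCG00000035524, chromosome 12, 17709046 to 17733434) encodes a secreted Wnt ligand known from flow-exposed endocardium. It was at 147, 76.4 and 382 CPM in 30.1 and at 77.6, 40.4 and 193 CPM in 30.2, again lower in every donor with overlapping ranges. It fell by 0.94 (SE 0.06, 95% interval −1.09 to −0.80, edgeR adjusted p = 0.0261). By edgeR the call was lost without the block (adjusted p = 0.99), with all 12 libraries (0.181), without donor 1 (0.236) and without donor 3 (0.057). At 2 dyne/cm2 its log2 fold change was much further from 0, −8.09 vs. the 30.1 set and −7.16 vs. the 30.2 set. At 80 dyne/cm2 it was 2.08 vs. the 30.2 set (edgeR adjusted p = 0.00233). Against the 30.1 set it was 1.14 (0.0671), close in size to the difference between the sets.

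**Figure D2:**
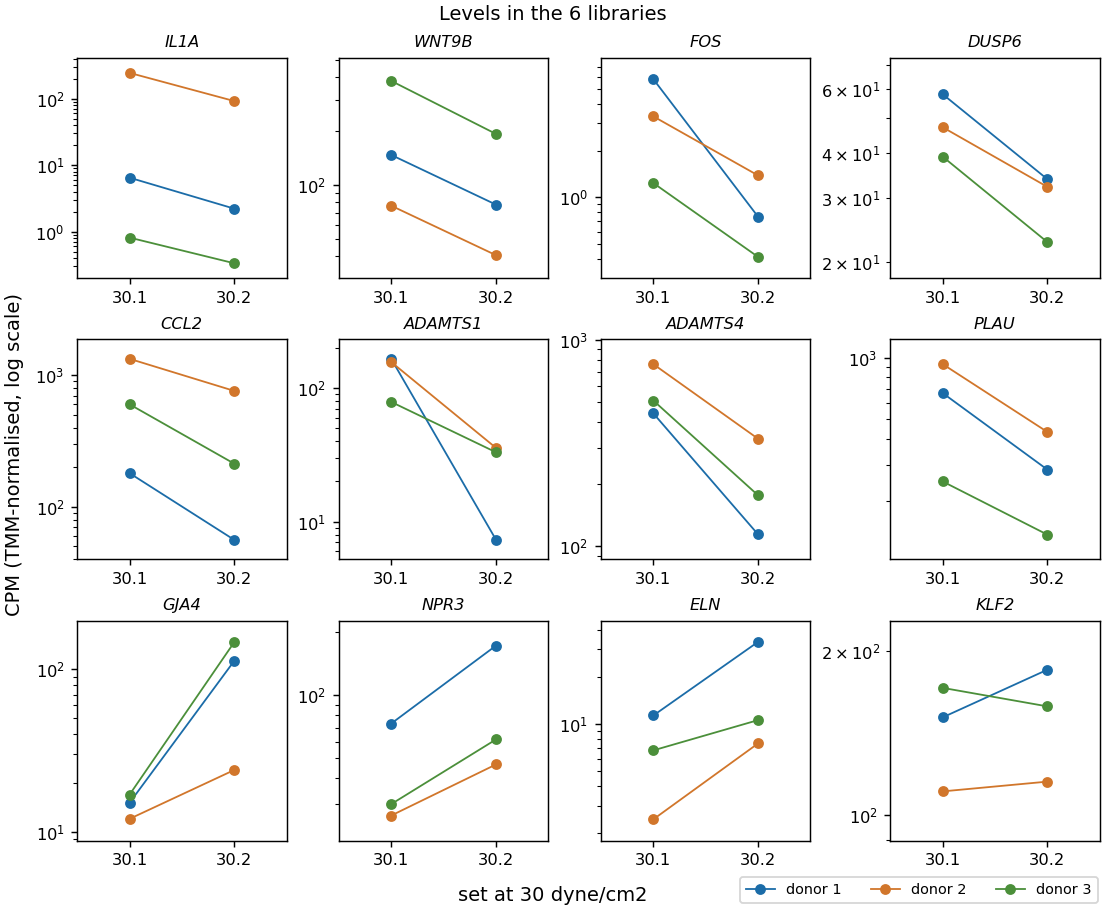
Levels of 12 genes, chosen after their values were seen, in the 6 libraries at 30 dyne/cm2 (TMM-normalised CPM, log axis), with a line joining the cultures of each donor. All 3 lines slope the same way for every gene but KLF2.

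The immediate early and ERK feedback list had the largest shift of all lists with 5 or more tested members. Of its 25 tested members, 24 had a lower estimate in 30.2 and 15 (60.0%) were lower at an unadjusted p under 0.05, beside 8.94% of all genes, while 1 was higher. Its median log2 fold change was −0.79, against 0.006 over all genes, and was −1.29, −0.38 and −0.63 in donors 1, 2 and 3. None of its members passed the adjusted threshold in the quasi-likelihood test, while 13 lower members did by the likelihood ratio test (3.05% of all genes) and 11 by DESeq2 (2.23%). At an unadjusted p under 0.05, 19 members were lower with all 12 libraries in the fit, beside 6.73% of all genes, and 7 without the block, beside 2.16%. Without donor 1, 13 of 23 tested members were lower at p under 0.05, without donor 2, 18 of 22, and without donor 3, 17 of 25.

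Among the feedback phosphatases, DUSP6, which inactivates ERK in the cytoplasm, was at 58.0, 47.0 and 39.0 CPM in 30.1 and at 33.8, 32.2 and 22.6 CPM in 30.2, so that every 30.2 library lay below every 30.1 library, as for 5.22% of all genes. Its log2 fold change was −0.70 (SE 0.08, adjusted p = 0.0656 by edgeR). DUSP4, a nuclear phosphatase of ERK, was at 13.1, 37.7 and 27.8 CPM and at 1.58, 20.9 and 6.07 CPM, with overlapping sets and a log2 fold change of −1.89 (SE 0.38). The ETS factors ETV4 and ETV5, transcription factors downstream of ERK, had values of −1.62 and −1.43. SPRY1, an inhibitor of receptor tyrosine kinase signalling, was at 18.9, 13.9 and 14.0 CPM and at 6.29, 8.92 and 7.67 CPM, without overlap. Its relatives SPRY2 and SPRY4 had values of −1.07 and −1.30.

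Of the immediate early factors, FOS, a subunit of the AP-1 transcription factor, was at 5.80, 3.33 and 1.24 CPM in 30.1 and at 0.749, 1.38 and 0.412 CPM in 30.2. Each donor was lower, by most in donor 1, and the sets overlapped (log2 fold change −1.96, SE 0.36). EGR1 and FOSB had large negative estimates, −1.37 and −2.41, but standard errors of 0.58 and 1.13, with donor 1 furthest from 0, and neither reached p under 0.05. The EGF receptor ligand HBEGF had a value of −1.04. FOSL2, another AP-1 subunit, was the exception, at 0.27 (SE 0.08).

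**Figure D3:**
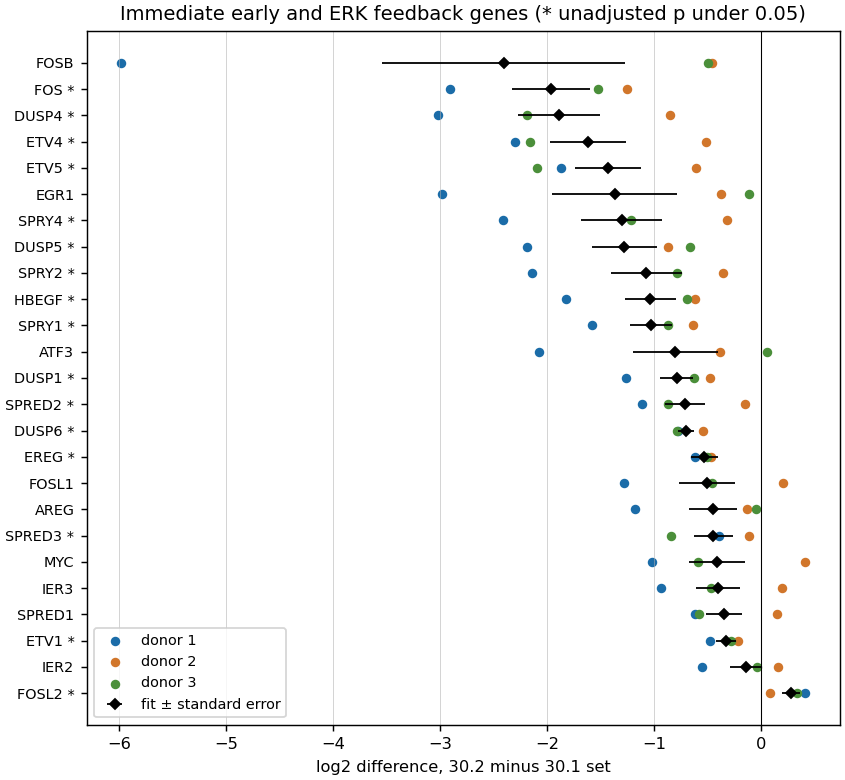
Log2 difference, 30.2 minus 30.1 (x axis), of the 25 tested immediate early and ERK feedback genes: coloured points are the 3 donors, diamonds the fit with its standard error, and an asterisk marks an unadjusted p under 0.05. Donor 1 lies furthest left for most genes, and FOSL2 alone has its diamond right of 0.

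Cytokines and NF-kappaB genes, which carry and limit the EC inflammatory response, were also mostly lower in 30.2. In the interleukin 1 and 6 family 7 of 13 tested members were lower at p under 0.05 and 1 higher (median −0.30). The median was −0.47, −0.31 and −0.11 in donors 1, 2 and 3. With all 12 libraries in the fit 5 were lower, beside 6.73% of all genes, and 2 without the block, beside 2.16%. In each of these fits 1 member was higher. IL6 was at 6.07, 8.02 and 0.874 CPM and at 3.30, 3.91 and 0.669 CPM. IL11 was at 2.28, 1.92 and 2.53 CPM and at 0.804, 1.32 and 1.03 CPM, which did not overlap (log2 fold change −1.11, SE 0.25). IL33, a nuclear alarmin of resting ECs, went the other way, at 570, 441 and 277 CPM and at 666, 717 and 760 CPM, without overlap, as for 5.14% of all genes (0.79, SE 0.22). The count of lower members was 1 of 11 without donor 1, 3 of 11 without donor 2 and 6 of 13 without donor 3.

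In the NF-kappaB list 8 of 19 tested members were lower at p under 0.05 and 0 higher (median −0.21). The median was −0.54, −0.18 and −0.04 in donors 1, 2 and 3. With all 12 libraries in the fit 4 were lower, beside 6.73% of all genes, and 1 without the block, beside 2.16%. NFKBIZ, an inducible nuclear IkappaB protein, was at 79.3, 241 and 47.1 CPM and at 35.8, 136 and 29.5 CPM, lower in every donor (log2 fold change −0.88, SE 0.10). The colony stimulating factors CSF1 and CSF2 had values of −0.82 and −1.19. NFKBIA and ICAM1, both common NF-kappaB targets, had values of −0.06 and −0.12, each smaller than its standard error or equal to it (0.19 and 0.12). Without donors 1 and 2 in turn, 5 members were lower at p under 0.05 in each case, and without donor 3, 10 were. Without donor 2, 2 members were higher (10.5%, beside 12.2% of all genes).

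CCL2, a monocyte-attracting chemokine, was at 180, 1333 and 601 CPM in 30.1 and at 56.1, 760 and 213 CPM in 30.2 (log2 fold change −1.33, SE 0.17). It was the 1 of 5 tested chemokines at p under 0.05, and without donor 3, 4 of 5 were lower and 1 higher. Leukocyte adhesion molecules went both ways, with 3 of 11 higher and 4 lower, and 1 higher and 3 lower without donor 1. SELP, encoding P-selectin, was at 902, 772 and 991 CPM and at 625, 457 and 595 CPM, without overlap (−0.67, SE 0.08). VCAM1 had a value of −0.68 and ALCAM a value of 0.88.

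Matrix proteases and their inhibitors had the second most negative median among the lists, −0.42. Of 26 tested members, 13 were lower and 2 higher at p under 0.05, and 11 lower members passed an adjusted threshold by the likelihood ratio test and 10 by DESeq2. Without each donor in turn, 11, 14 and 11 members were lower. Proteases of the ADAMTS family, which cleave proteoglycans, led the list. ADAMTS1 was at 164, 156 and 78.5 CPM in 30.1 and at 7.35, 35.6 and 33.0 CPM in 30.2, without overlap and with a wide spread between donors (log2 fold change −2.52, SE 0.59). ADAMTS4 was at 440, 762 and 508 CPM and at 114, 332 and 177 CPM, also without overlap (−1.55, SE 0.14, edgeR adjusted p = 0.0563).

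The plasminogen activation system, which converts plasminogen to plasmin at the cell surface, included a protease and its receptor with lower values in 30.2. PLAU, the urokinase, was at 671, 930 and 248 CPM and at 283, 433 and 136 CPM, lower in each donor with overlapping sets (log2 fold change −1.07, SE 0.09). Its receptor PLAUR was at 130, 166 and 177 CPM and at 60.5, 97.7 and 64.4 CPM, without overlap (−1.10, SE 0.13). The metalloprotease inhibitor TIMP1 had a value of −0.69, and the membrane metalloprotease MMP14 of −0.55. MMP2, a secreted gelatinase, had a value of −0.05 (SE 0.09).

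Matrix structural genes gave a less uniform picture. COL1A2, a fibrillar collagen chain, was at 71.4, 2.34 and 65.5 CPM and at 204, 3.51 and 125 CPM, and ELN, the elastin gene, was at 11.3, 2.46 and 6.78 CPM and at 33.4, 7.51 and 10.6 CPM. Both were higher in all donors, with overlapping sets (log2 fold changes 1.11 and 1.26, SE 0.16 and 0.21). POSTN, encoding periostin, was the opposite (−0.88, SE 0.12). Of 13 tested collagens 2 were higher (15.4%, beside 10.3% of all genes) and 0 lower at p under 0.05. Without donor 1, 2 were higher and 2 lower, 15.4% each, beside 4.9% and 4.2% of all genes. The collagen median was 0.06 over 3 donors and −0.18 without donor 1. COL1A2 is also in the fibroblast marker list, of which 3 of 8 tested members were higher and 1, LUM, was lower at p under 0.05, while DCN had at most 18 counts in any library. The part of such cells in these values was not tested. In bulk RNA, a different share of a cell type and a different RNA level per cell cannot be told apart.

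Interferon-stimulated and antigen processing genes, which respond to type I and type II interferon and load peptides on MHC class I, were mostly higher in 30.2. Of 29 tested interferon genes 9 were higher (31.0%, beside 10.3% of all genes) and 1 lower at p under 0.05. Of 15 antigen processing genes all had a higher estimate and 5 reached p under 0.05. The median was 0.28 for the first list, with 0.36, −0.04 and 0.57 in donors 1, 2 and 3, and 0.27 for the second, with 0.10, 0.02 and 0.50. With all 12 libraries in the fit 4 interferon genes were higher, beside 7.33% of all genes, and 1 without the block, beside 2.08%. By the likelihood ratio test 5 passed the adjusted threshold, beside 3.67% of all genes, and 1 by DESeq2, beside 1.95%. Without donor 1, 4 interferon and 3 antigen processing genes were higher, beside 4.9% of all genes. Without donor 2 the interferon count was 15 of 28 (53.6%, beside 12.2%), with 5 antigen processing genes. Without donor 3 the counts were 5 and 1, beside 6.25%.

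IFI44L, an interferon-induced gene, was at 22.6, 21.6 and 8.74 CPM and at 34.2, 25.2 and 16.0 CPM (log2 fold change 0.55, SE 0.13). ERAP2, a peptide-trimming aminopeptidase, was at 9.66, 11.6 and 4.76 CPM and at 14.3, 14.3 and 13.3 CPM, without overlap (0.76, SE 0.23). ISG15, a ubiquitin-like interferon target, went against its list at −0.32, and MX1 was at 0.00 (SE 0.10).

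**Figure D4:**
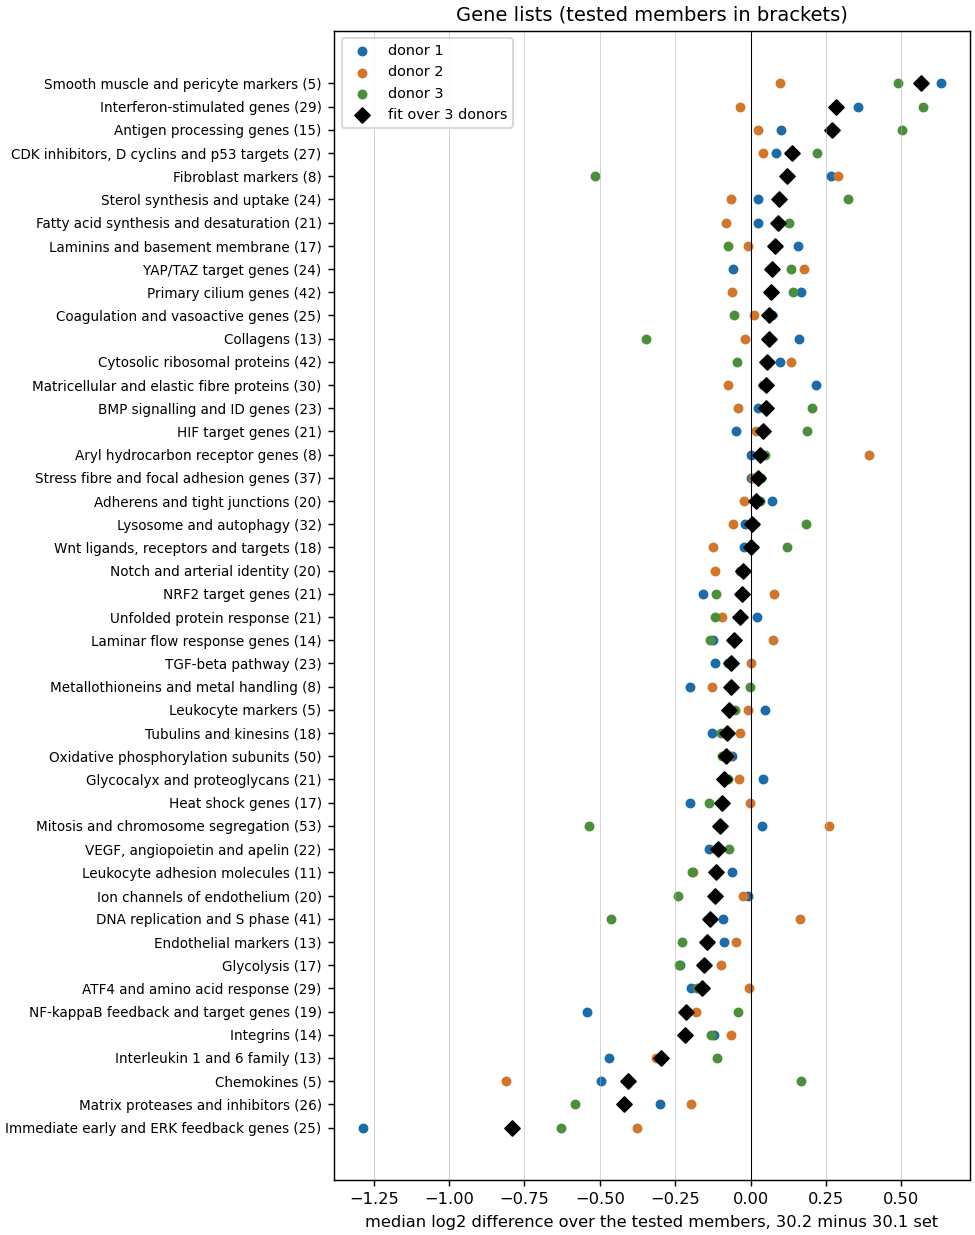
Median log2 difference, 30.2 minus 30.1, over the tested members of each gene list with 5 or more tested members (x axis): black diamonds are the fit over 3 donors and coloured points the single donors. The immediate early and ERK feedback list and the matrix proteases lie furthest left with all 3 donors below 0, while the mitosis and DNA replication lists have donors on both sides of 0.

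The genes with the largest higher values in 30.2 came from several classes. GJA4, encoding the arterial gap junction protein connexin 37, was at 15.0, 11.98 and 16.9 CPM in 30.1 and at 113, 24.0 and 147 CPM in 30.2, without overlap (log2 fold change 2.40, SE 0.42, 95% interval 1.37 to 3.42). Donor 2 contributed the smallest difference. GDF6, a ligand of the BMP family, was at 31.2, 19.7 and 2.92 CPM and at 79.5, 45.8 and 20.9 CPM (1.69, SE 0.29). THRB, a thyroid hormone receptor, HEYL, a Notch target repressor, and CDON, a hedgehog co-receptor, had values of 1.56, 1.45 and 1.37 at low levels.

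DHRS3 and DHRS9, both enzymes of retinoid metabolism, took opposite values, 1.44 and −1.64. TET1, which oxidises methylcytosine, and the imprinted gene PEG10 had values of 1.42 and 1.396, though PEG10 was almost equal in donor 2 (2.76 and 2.86 CPM). SHISA9, FRMD1, ASPHD2 and LRRC4 completed the 12 largest higher values, between 1.39 and 1.53. Among the largest lower values outside the lists above, SEMA7A, a membrane-anchored semaphorin, was at 1.74, 4.38 and 3.68 CPM and at 0.333, 1.45 and 0.772 CPM, without overlap (−2.01, SE 0.23). TRIB1, a pseudokinase, DUSP10, a phosphatase of p38 and JNK, and IVL, a cornified envelope protein, had values of −1.69, −1.57 and −1.79. CSPG4, of the smooth muscle and pericyte list, was also among them at −1.67, while the 3 other members of that list at p under 0.05 were higher.

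Notch and BMP genes were split. In the Notch and arterial identity list 4 of 20 tested members were higher and 5 lower at p under 0.05 (2 of 19 lower without donor 1), with the ligands JAG1 at 1.30 (SE 0.49) and DLL4 at −0.92 (SE 0.33). In the BMP list 6 of 23 were higher and 2 lower, among them BMP4 at 0.73, the receptor ACVRL1 at 0.32 and the transcription factor ATOH8, at 24.2, 16.3 and 26.7 CPM and at 32.1, 29.4 and 38.6 CPM, without overlap (0.59, SE 0.10). In the VEGF, angiopoietin and apelin list 8 of 22 were lower and 1 higher (5 and 3 without donor 1), with FLT1, a VEGF receptor, at −0.51 (SE 0.09). Of the TGF-beta pathway 6 of 23 were lower and 1 higher, with the ligands TGFB1 at −0.40 and TGFB2 at 0.45.

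Of 25 coagulation and vasoactive genes 6 were higher and 3 lower at p under 0.05. They included NPR3, the natriuretic peptide clearance receptor, at 73.2, 26.6 and 30.1 CPM and at 172, 46.6 and 61.4 CPM, higher in each donor with overlapping sets (log2 fold change 1.03, SE 0.09, edgeR adjusted p = 0.0563). EDN1, the vasoconstrictor endothelin 1, and ACE, the angiotensin converting enzyme, had values of 0.70 (SE 0.12) and 1.14 (SE 0.24). NOS3, the endothelial nitric oxide synthase, was at 1192, 792 and 1711 CPM and at 920, 680 and 1106 CPM (−0.41, SE 0.10, adjusted p = 0.142). KLF2 and KLF4 differed by 0.08 each, with 95% intervals of −0.14 to 0.30 and −0.07 to 0.23. Of 14 tested laminar flow response genes, 2 were higher and 3 lower at p under 0.05 (median −0.05). These were 14.3% and 21.4%, beside 10.3% and 8.94% of all genes. Without donor 2 the counts were 3 and 6 (21.4% and 42.9%, beside 12.2% and 10.9%). At 2 dyne/cm2 vs. the 30.1 set KLF2, KLF4 and NOS3 had values of −4.35, −2.62 and −1.86.

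Adhesion and cytoskeleton genes showed small differences. Of 14 integrins 6 were lower and 3 higher at p under 0.05 (1 higher without donor 2 or donor 3), with ITGA5, a fibronectin receptor subunit, at 2858, 3349 and 3887 CPM and at 2065, 2443 and 2316 CPM, without overlap (log2 fold change −0.56, SE 0.10). FN1 itself had a value of 0.50 (SE 0.19). Of 37 stress fibre and focal adhesion genes 5 were higher and 4 lower, with the actin-binding tropomyosin TPM1 at 0.88 (SE 0.10) and the myosin light chain MYL9 at 0.59 (SE 0.09). Of 18 tubulins and kinesins 5 were lower and 0 higher (2 lower without donor 1), among them TUBA1B at −0.49. The shares in the stress fibre list, 13.5% and 10.8%, were near those of all genes, and without donor 3 the counts were 2 and 1.

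Energy metabolism genes had small, mostly negative differences. Of 17 glycolysis genes 7 were lower and 1 higher at p under 0.05 (median −0.16), with PFKFB3, a regulator of glycolytic rate in ECs, at −0.64 and LDHA, lactate dehydrogenase, at −0.36. Without donor 1, 2 of 16 were lower (12.5%, beside 4.2% of all genes). Among 50 oxidative phosphorylation subunits 45 had a lower estimate and 28 were lower in all 3 donors, beside 21.5% of all genes, but the median was −0.08 and 6 reached p under 0.05, 1 without donor 1.

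Mitosis and DNA replication genes differed in direction by donor. The median of 53 mitosis genes was 0.04, 0.26 and −0.54 in donors 1, 2 and 3, and that of 41 DNA replication genes −0.09, 0.16 and −0.46. No mitosis gene and 3 DNA replication genes reached p under 0.05 over all donors. Without donor 2, 15 DNA replication genes (36.6%) and 8 mitosis genes were lower, beside 10.9% of all genes, and without donor 3, 7 mitosis genes were higher and 0 lower, beside 6.25% of all genes. CCND1, a D cyclin that drives entry into the cycle, was at 488, 298 and 537 CPM and at 241, 258 and 284 CPM, without overlap (log2 fold change −0.72, SE 0.16). The CDK inhibitor CDKN1B was at 17.8, 22.9 and 22.0 CPM and at 27.9, 26.4 and 38.6 CPM, also without overlap (0.56, SE 0.13). Ribosomal protein, NRF2 and lysosome genes had 1 of 42, 2 of 21 and 3 of 32 members at p under 0.05, beside 19.2% of all genes. Without donor 2, 7 of 21 NRF2 genes were lower (33.3%, beside 10.9%), and without donor 3, 5 of 32 lysosome genes (15.6%, beside 5.81%).

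The flow comparisons of some of these genes gave different values with each control set. The 2 comparisons with the set exchanged were added after the data were seen, and comparisons that share libraries are set side by side without a test. The genes were chosen for their difference between the sets, so a shift with the control set follows from that choice and is no separate result. At 80 dyne/cm2, ADAMTS1 had a log2 fold change of 2.81 vs. the 30.2 set (adjusted p = 0.00618 by edgeR) and of 0.23 vs. the 30.1 set (0.893). ADAMTS4 had values of 1.398 (adjusted p = 0.00646) and −0.16 (0.844), and PLAU of 1.18 (0.00394) and 0.11 (0.767). PEG10 had values of −1.60 and −0.21, THRB of −1.49 and 0.01, and DHRS3 of −1.72 and −0.16. Not all values came near 0 vs. the 30.1 set. SEMA7A had values of 3.21 and 1.10 and DHRS9 of 2.45 and 0.75, and GJA4 had values of −0.40 and 1.98. IL1A had values of 1.00 (adjusted p = 0.0314) and −0.50 (0.422).

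At 2 dyne/cm2, GJA4 had a value of 2.41 vs. the 30.1 set (edgeR adjusted p = 0.0147) and of 0.02 vs. the 30.2 set, and FOS of −1.98 vs. 30.1. ADAMTS1 had values of −5.75 and −3.15, so that the direction held with either set. Over all genes, the median absolute log2 fold change of 80 dyne/cm2 was 0.157 vs. the 30.2 set and 0.142 vs. the 30.1 set, and that of 2 dyne/cm2 was 0.270 vs. 30.1 and 0.213 vs. 30.2, beside 0.12 between the sets. The difference between 80 and 2 dyne/cm2 uses neither control set, but by the labels it is also a difference in slide type and cell number. Across the 11163 genes, its mean over donors correlated with the set difference at Pearson's r = −0.33 and Spearman's rho = −0.351, with single donors at −0.134, −0.236 and −0.277. The libraries differ but the donors are shared and genes are not independent, so no p is given.

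**Figure D5:**
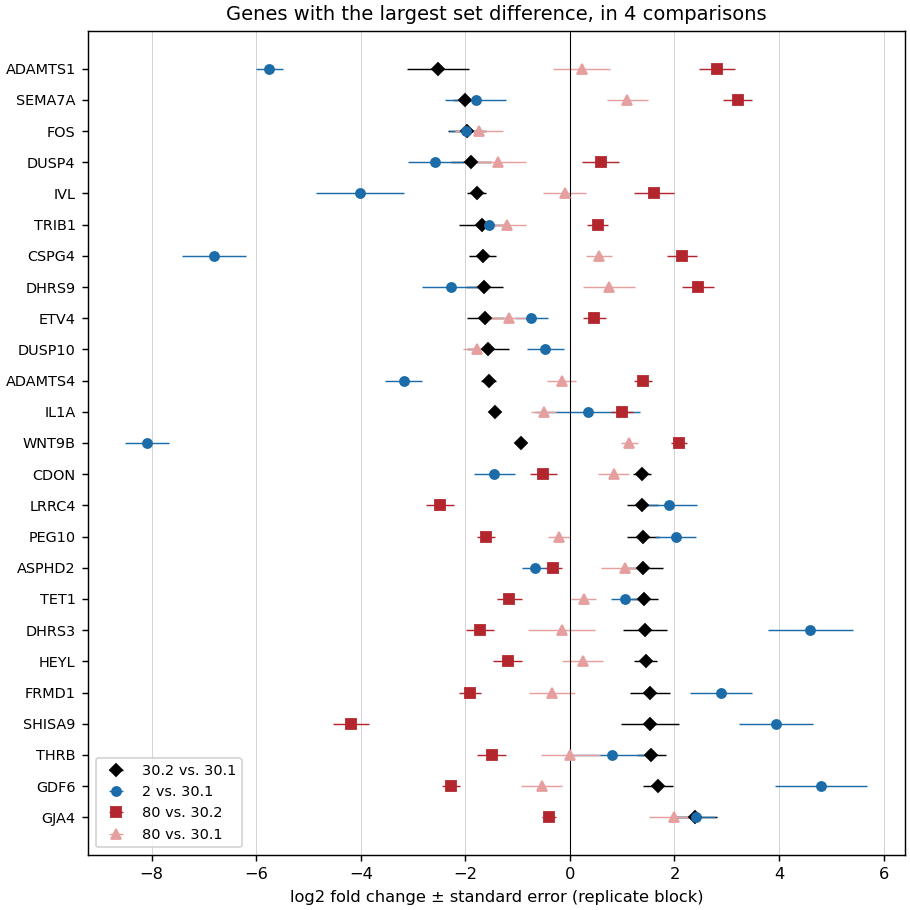
Log2 fold change with its standard error (x axis) of the 2 genes past the adjusted threshold and the 12 largest higher and 12 largest lower genes, in 4 comparisons marked by shape and colour. For ADAMTS1, ADAMTS4, PEG10 and THRB the 80 vs. 30.2 values lie 1 or more from 0 while the 80 vs. 30.1 values lie near 0. For GJA4 the 80 vs. 30.1 value lies further from 0. The genes were chosen for their set difference, so a shift between control sets follows from that choice.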

How the data were processed

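The authors sequenced single-end reads, mapped them to Sscrofa11.1 with STAR 2.4, dropped reads at several locations and counted reads over exons with featureCounts 1.4.6. The deposited table holds raw counts per gene and library. The strand setting of the counting was not given in the sources used here, so overlapping genes are uncertain. Ensembl IDs were matched to symbols for 14572 of 21153 genes (68.9%).

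Here, counts of the 6 libraries at 30 dyne/cm2 were tested with edgeR 4.0.16 in R 4.3.3: TMM normalization, CPM of 1 or more in at least 3 libraries, the quasi-likelihood test with the replicate number (donor) as a block, and Benjamini-Hochberg adjustment over all genes tested. The design leaves 2 residual degrees of freedom per gene. CPM of genes are TMM-normalised, while CPM of marker ranges and sums use library totals. The source labels name the same donor for the same number. Deviations from the set means correlated at 0.815 to 0.831 between cultures of a donor and at −0.447 to −0.367 otherwise. Deviations cancel within a set, so negative values between donors follow once those within a donor are positive, and are no separate result.

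The genes and the 47 lists were chosen with earlier results of these data known. Named are genes at adjusted p under 0.05, the 12 largest higher and 12 largest lower genes with a mean of 50 counts, unadjusted p under 0.05 and 1 sign in 3 donors, up to 4 members per list by p, and KLF2, KLF4, NOS3 and cell type markers. Other named genes were chosen after their values were seen. Some list members are not reported here by name. THBD and VWF had no symbol match, and 0 mitochondrial genome genes matched. Lists are described by counts beside those over all genes, with no set test. Alternatives were other normalizations, filters, tests (likelihood ratio, DESeq2 1.42.0, limma 3.58.1 voom), all 12 libraries in 1 fit, no block, and leaving out each donor. Scripts were tested on simulated data. In a simulated run with no set effect, 4 genes passed an adjusted p under 0.05 by edgeR, beside 2 in the data. At an unadjusted p under 0.05 it had 5.04% of genes, beside 19.2% in the data. Genes were drawn independently, with dispersions estimated from these 6 libraries, so the run does not copy variation that genes share. The 2 counts of calls therefore do not measure what such variation gives. With effects of 1 and 2 on the log2 scale added, 87 and 99 of 99 changed genes passed, with 16 false calls. Sequence tables were not used here, so promoter motifs, promoter GC and protein length were not analysed, and genomic span was used instead.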

Additional observations from a re-analysis of the deposited data

How the results depend on the processing

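With the replicate block, 2 genes passed an adjusted p of 0.05, 1 of them at 2-fold, and 2146 an unadjusted p of 0.05. With no replicate block the counts were 0, 0 and 473, and the biological coefficient of variation went from 10.8% to 28.4%. By the likelihood ratio test 750 and 90 genes passed the adjusted thresholds, by DESeq2 467 and 66, with no filter 161 and 46, with filterByExpr 7 and 6, and with all 12 libraries 0 and 0. All 750 and 467 of these were among the 2146. Leaving out a donor gave 0 to 144 genes, 0 to 62 at 2-fold and 999 to 2518 at an unadjusted p of 0.05: without donor 1 they were 0, 0 and 999, without donor 2 144, 62 and 2518, and without donor 3 4, 4 and 1318. The other normalizations, voom and the minimum of 10 counts kept IL1A and WNT9B as the 2 calls. Of the named genes, 4 values reversed: without replicate 1, CD68 (0.036), CYP1B1 (0.030) and KLF2 (−0.026), and with no replicate block, CYP1B1 (0.086). Leaving out each donor in turn, they ran from −0.19 to 0.036, from −0.92 to 0.030 and from −0.026 to 0.17. IL1A had no value without donor 1 or 2, where it was under the level filter. The cause of these changes was not tested. The median of the ERK feedback list ran from −0.91 to −0.51 over 13 alternatives and that of the matrix proteases from −0.52 to −0.30. The mitosis median ran from −0.26 to 0.14. The genes in the lowest of 5 bins by level had a median log2 fold change of 0.10, beside −0.02 to 0.03 in the others.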
